A study of Mus musculus with 6 samples.

Results

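The cytosolic ribosomal protein genes, which encode the protein subunits of the ribosome outside mitochondria, were followed across sorted innate lymphoid cell precursors (ILCPs). Members were taken by gene symbol: names of the form Rpl or Rps followed by a digit, without pseudogenes named -ps and without the Rps6k kinases, plus Rplp0, Rplp1, Rplp2 and Rpsa. This gave 86 of the 16383 genes analysed, 51 of the large and 35 of the small subunit. Of 77 names on a list of standard subunit genes, 75 were among them (46 large, 29 small). Rps12 and Rps27 are not analysed here. The other 11 members were paralogs, retrogene copies, annotated pseudogenes not named -ps, and 1 binding protein, Rps19bp1, which is not a subunit. GENCODE vM21 types Rpl6l, Rps12l1, Rps3a2 and Rps3a3 as processed pseudogenes and Rpl37rt as a transcribed processed pseudogene. Of these, Rps12l1 and Rpl37rt had enough counts to test and are counted among the tested members below.

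ILCPs, bone marrow precursors of innate lymphoid cells, came from C57BL/6 mice that carried Rag1-cre and ET-2. ET-2 is known as a fusion of E47, an E protein, with the DNA-binding part of TAL1, and its expressing cells were recognised by GFP. Both were sorted from lineage-depleted marrow by IL7Rα, α4β7 and CD90, without CD25 or Flt3, and gave 3 libraries of each. Each replicate pooled marrow from several animals and supplied its own GFP+ and GFP- library, so replicates are pools and p-values measure the spread between these pools. All mice carried both transgenes, and Rag1-cre without ET-2 was not sampled here. A history of Rag1-driven Cre and the action of ET-2 therefore cannot be told apart.

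As background, each ribosome holds a large subunit, which joins amino acids into a chain, and a small subunit, which reads the mRNA. Each contains 1 copy of most of its proteins, and their genes are usually expressed at matched levels in all cells. Ribosomal protein mRNAs mostly begin with a run of pyrimidines, the TOP tract, through which mTOR and the RNA-binding protein LARP1 control their translation. Variants that reduce a single subunit protein cause, in humans, Diamond-Blackfan anaemia, a failure of red cell precursors.

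Promoters of ribosomal protein genes are known to share short motifs, so the start of the gene is shown for members on which the results below turn. In the RefSeq promoter table (GRCm38.p6, 250 bases before to 50 after each gene's start), 62 of the 86 members matched by symbol. CGGAAG, the core read by ETS family factors, was searched on both strands over that window and was present in 66.1% of the matched members and in 18.8% of 27025 promoters. CTTTC, a short pyrimidine run, was searched on the gene's strand within 50 bases of the start and was present in 51.6% of the members and 14.6% of all promoters. TATAA, searched as letters in the same way for comparison, was present in 14.5% and 7.97%. The stretches below run 5′ to 3′ on the gene's strand from 60 bases before to 20 after the start, with CGGAAG (or its reverse complement) and CTTTC in capitals. A match is a run of letters and not a measured binding site.
Rpl38: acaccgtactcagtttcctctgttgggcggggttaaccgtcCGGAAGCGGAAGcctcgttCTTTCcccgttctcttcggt
Rps6: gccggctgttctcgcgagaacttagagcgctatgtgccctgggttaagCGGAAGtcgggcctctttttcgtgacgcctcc
Rpl4: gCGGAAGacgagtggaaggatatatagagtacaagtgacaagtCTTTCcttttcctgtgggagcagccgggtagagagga
Rpl39: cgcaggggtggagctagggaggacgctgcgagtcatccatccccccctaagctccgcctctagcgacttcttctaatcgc
Rplp2: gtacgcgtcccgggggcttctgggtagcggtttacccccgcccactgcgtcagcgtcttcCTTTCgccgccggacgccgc
Rpl18: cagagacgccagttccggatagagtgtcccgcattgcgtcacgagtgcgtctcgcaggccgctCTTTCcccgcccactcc
Rpl35: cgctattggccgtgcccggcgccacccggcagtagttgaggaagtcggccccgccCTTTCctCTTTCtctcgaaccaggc
Rps27rt: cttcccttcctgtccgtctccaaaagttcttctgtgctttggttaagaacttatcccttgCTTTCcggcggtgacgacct
Rps27l: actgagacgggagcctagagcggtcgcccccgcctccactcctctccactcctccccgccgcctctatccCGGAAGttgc
Rpl22: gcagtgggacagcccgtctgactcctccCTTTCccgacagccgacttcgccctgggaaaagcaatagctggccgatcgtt
Rpl22l1: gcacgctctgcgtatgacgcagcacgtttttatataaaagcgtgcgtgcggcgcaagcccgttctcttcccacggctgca
Rpl38 lies at chr11:114668520-114668599 on the plus strand and holds CGGAAG in tandem followed by CTTTC at the start. Rps6, at chr4:86857348-86857427 on the minus strand, holds CGGAAG without CTTTC, and Rpl4, at chr9:64173327-64173406 on the plus strand, holds both. Rplp2 (chr7:141447591-141447670 on the plus strand), Rpl18 (chr7:45718011-45718090 on the plus strand) and Rpl35 (chr2:39005112-39005191 on the minus strand) hold CTTTC and not CGGAAG in these stretches. Rpl39, at chrX:37085203-37085282 on the minus strand, and Rpl22l1, at chr3:28805448-28805527 on the plus strand, hold neither, whereas Rpl22, at chr4:152325666-152325745 on the plus strand, holds CTTTC. Rps27rt, at chr9:114982720-114982799 on the minus strand, holds CTTTC, and Rps27l, at chr9:66946026-66946105 on the plus strand, holds CGGAAG.

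The libraries held 10432461 to 15042354 estimated counts in GFP+ ILCPs and 11680512 to 19038554 in GFP- ILCPs. GFP+ replicate 3 stood apart. It had the fewest genes above 0 (11278, against 12601 to 15030) and gave 2.97% of its counts to immunoglobulin genes, against at most 0.135% elsewhere. Genes of the sorted surface proteins (Il7r, Itga4, Itgb7 and Thy1) and others of the precursors (Id2, Gata3, Tcf7 and Kit) were above 0 in every library. Of these 8 genes, 4 were higher and 4 lower in GFP+ than in GFP- ILCPs in replicate 3, so they went no single way there. Il7r stood at 1255, 2450 and 2463 CPM in GFP+ ILCPs and 1353, 1701 and 2670 CPM in GFP- ILCPs, and was not lowest in GFP+ replicate 3. Kit, a growth factor receptor, stood at 372, 266 and 67.6 CPM in GFP+ ILCPs and 379.6, 378 and 361 CPM in GFP- ILCPs, and Tcf7, a factor of lymphoid precursors named after its values were seen, at 1109.9, 3684 and 342 CPM in GFP+ ILCPs and 1429, 2057 and 2168 CPM in GFP- ILCPs, both lowest in GFP+ replicate 3. Il2ra, which encodes the CD25 that the sort excluded, stood at 151, 395 and 2025 CPM in GFP+ ILCPs and 176, 322 and 339 CPM in GFP- ILCPs, highest in GFP+ replicate 3. Flt3, also excluded by the sort, went the other way at a low level and was at 0 in GFP+ replicate 3. It stood at 1.71, 2.56 and 0 CPM in GFP+ ILCPs and 2.17, 1.37 and 2.48 CPM in GFP- ILCPs. Levels here and below are CPM, counts scaled to a common library size by TMM, always given for replicates 1, 2 and 3 in that order.

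Ribosomal protein genes took 9.20% of the counts of GFP+ replicate 3, whereas GFP+ replicates 1 and 2 stood at 2.88% and 1.72%. GFP- replicates 1, 2 and 3 stood at 3.44%, 2.89% and 1.96%. The means were 4.60% ± 4.03 (SD, n = 3) in GFP+ and 2.77% ± 0.747 (SD, n = 3) in GFP- ILCPs, a difference of 1.84 percentage points that is smaller than the spread within GFP+ ILCPs. Within replicates 1 and 2 the GFP+ library was the lower of the pair, and within replicate 3 it was the higher.

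The 2 subunits did not keep a fixed proportion. Large subunit genes took 1.71%, 1.23% and 5.26% of the counts in GFP+ ILCPs and 2.07%, 1.73% and 1.46% in GFP- ILCPs. Small subunit genes took 1.17%, 0.497% and 3.95% in GFP+ ILCPs and 1.38%, 1.16% and 0.504% in GFP- ILCPs. The ratio of large to small subunit counts was therefore 1.33 to 1.50 in 4 libraries, and 2.47 in GFP+ replicate 2 and 2.90 in GFP- replicate 3. Without Rpl4 and Rps27rt, chosen after their values were seen as the most abundant genes of each subunit, the 2 high ratios were 1.93 and 2.03, and the others 1.43 to 1.50. The same 2 libraries gave 5.16% and 4.63% of their counts to mitochondrially encoded genes, against 0.715% to 2.27% elsewhere. Both subunit sums come from the same library, so that share does not itself enter the ratio. Whether the ratio and that share are linked was not tested. These libraries belong to opposite groups, and neither their RNA quality nor their assignment to groups was tested, which limits what the values of replicates 2 and 3 show.

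**Figure D1:**
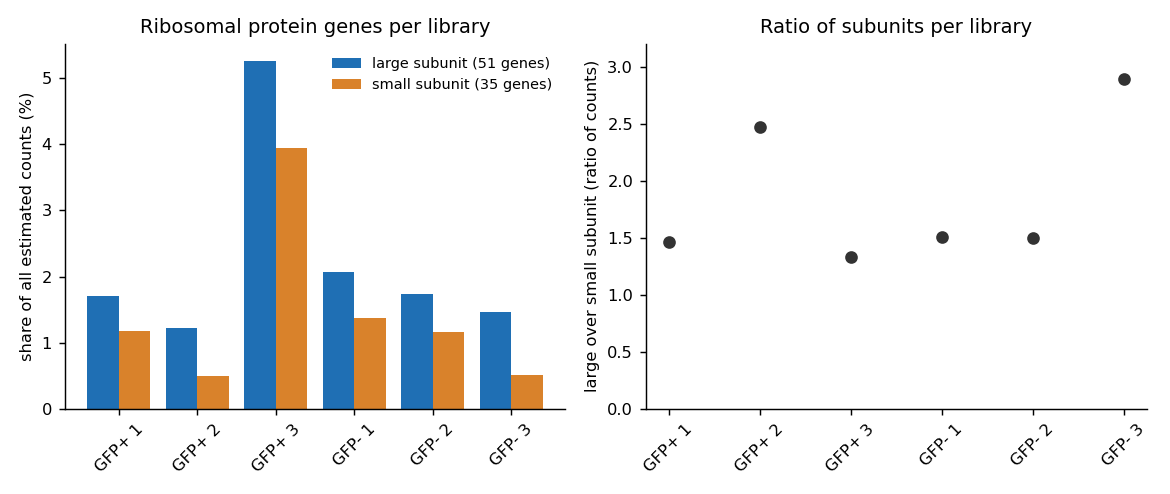
Left, share of all estimated counts (percent) in large and small subunit genes in each library; right, the ratio of large to small subunit counts in the same libraries. GFP+ replicate 3 reaches 5.26% and 3.95%, and the ratio is above 2 only in GFP+ replicate 2 (2.47) and GFP- replicate 3 (2.90).

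The comparison of GFP+ with GFP- ILCPs asked which genes ET-2 expression goes with. In edgeR's quasi-likelihood test with Benjamini-Hochberg adjustment, 0 of the 83 members with enough counts to test were called at an adjusted p of 0.05, beside 0% of all 12199 genes tested. At an unadjusted p under 0.05 there were also 0 members, beside 1.77% of all genes higher and 1.46% lower. DESeq2 called 0 members (0.411% of its 14608 genes with an adjusted p) and had 1 member, Rps27l, under an unadjusted 0.05. The authors' deposited table likewise called 0 members (0.703% of its 13948 genes with an adjusted p), with a lowest member adjusted p of 0.512 for Rps27l. In edgeR the adjusted p of the members ran from 0.998 to 0.999, so only unadjusted p values are given below. The members that could not be tested, Rpl6l, Rps3a2 and Rps3a3, stayed at or below 4.03 CPM in every library.

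Fold changes leaned one way without passing any test. Log2 fold changes, GFP+ over GFP-, were above 0 for 82 of 83 members, beside 49% of all genes, with a median of 1.13 over the members and −0.03 over all genes. The median was 1.06 for the large subunit (49 of 50 above 0, from −0.09 to 1.86) and 1.23 for the small subunit (33 of 33, from 0.38 to 1.94). With the replicate number as a block, 77 of 83 were above 0 and the median was 0.53. The lean rested on 1 library. Without GFP+ replicate 3, 26 of 84 members were above 0 and 58 below, with a median of −0.20. Without both libraries of replicate 3, 20 were above and 63 below, with a median of −0.38. In bulk RNA such as this, a lower share of a cell type and less RNA per cell cannot be told apart.

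**Figure D2:**
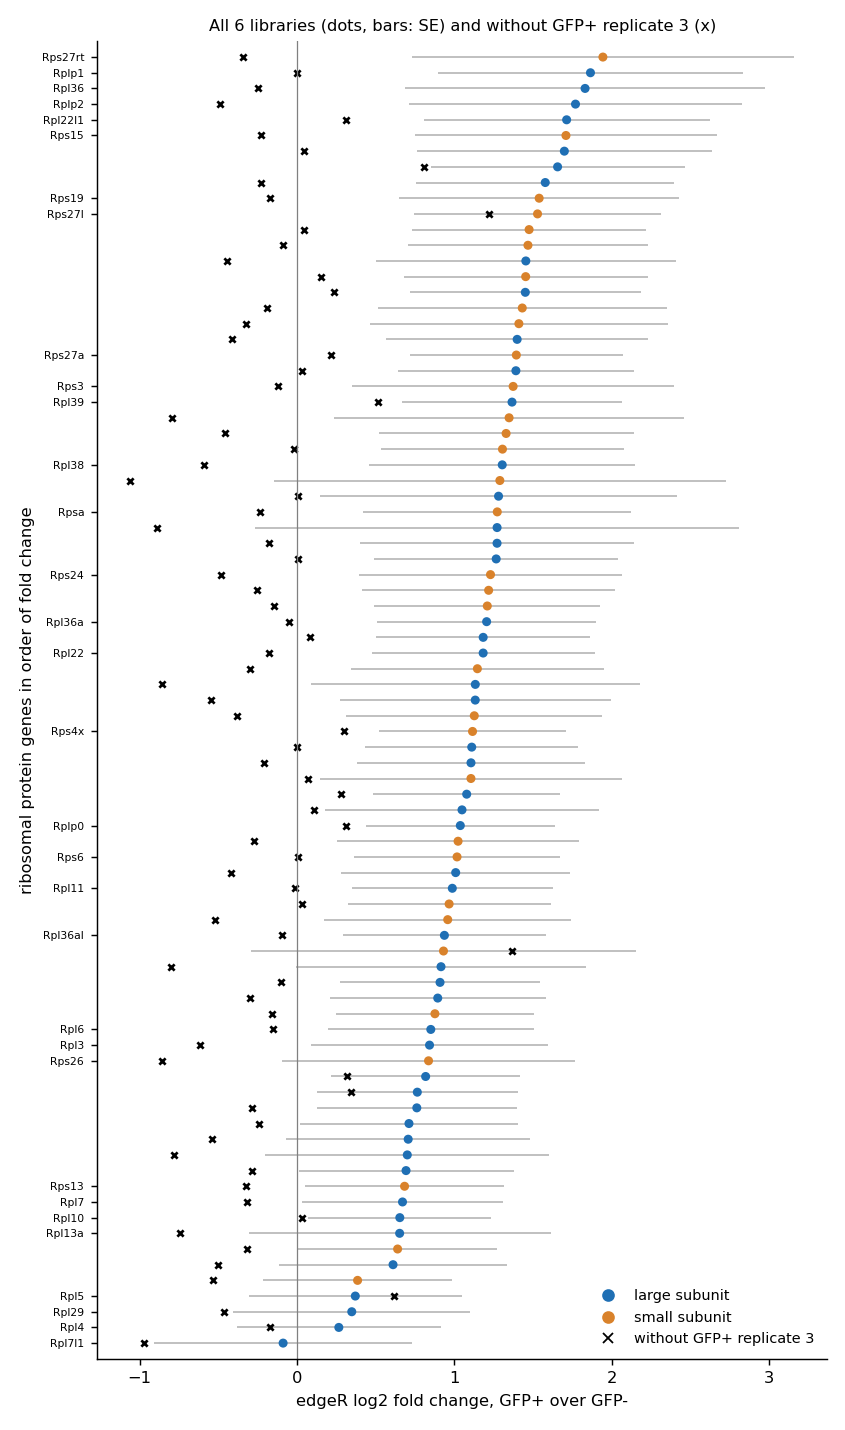
Log2 fold change, GFP+ over GFP-, of each tested ribosomal protein gene from edgeR, with bars of 1 standard error, and crosses for the fit without GFP+ replicate 3; labels mark a selection of genes named in the text. Of the 83 points 82 lie above 0, with medians of 1.06 in the large and 1.23 in the small subunit, and none passed the adjusted threshold. Without GFP+ replicate 3 the median over all members was −0.20.

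The 3 pairs went different ways. In replicate 1, 12 members were higher in the GFP+ library and 71 lower (49.5% of all genes were higher), with a median log2 difference of −0.26. In replicate 2, 22 were higher and 61 lower (44.8% of all genes were higher), with a median of −0.48. In replicate 3, 81 were higher and 2 lower (41.3% of all genes were higher), with a median of 2.93. The all-gene medians were −0.01, −0.20 and −0.47, so the members lay below them in replicates 1 and 2 and above in replicate 3. Scaling by totals or by DESeq2's factors left the direction of each median as it was (pair 2 at −0.99 and −0.46), and by totals pair 2 had 11 members higher and 72 lower.

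Only a few members kept 1 direction. There were 5 members higher in GFP+ in all 3 pairs, beside 8.51% of all genes, namely Rpl12, Rpl27a, Rpl39, Rps27l and Rps4x, and 0 lower in all 3, beside 15.4%. Groups did not overlap for 2 tested members, Rps27l and Rps4x, both higher in GFP+, beside 3.17% of all genes, and for 0 lower, beside 6.01%. These shares are near or under the background.

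**Figure D3:**
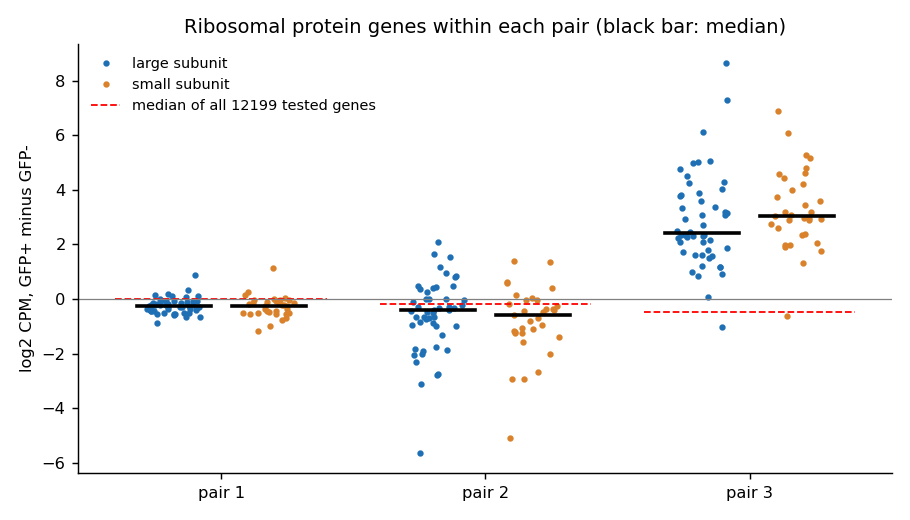
Log2 difference, GFP+ minus GFP-, of each tested ribosomal protein gene within each replicate, large and small subunit apart. The medians are −0.26, −0.48 and 2.93 in replicates 1, 2 and 3, so replicate 3 lies opposite to the other pairs, and the dashed line is the median of all genes.

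Each member was set against its own mean over the 6 libraries, which removes its level. GFP+ replicate 3 was the highest library for 81 of the 83 tested members, beside 23.1% of all genes. The exceptions were Rpl5, highest in GFP+ replicate 2, and Rps19bp1, highest in GFP+ replicate 1. The members' median deviation was −0.19, −0.74 and 2.03 in GFP+ replicates 1, 2 and 3 and 0.03, −0.17 and −0.78 in GFP- replicates 1, 2 and 3, on the log2 scale.

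Members were not evenly low in the 2 low libraries. The SD across members of this deviation was 0.931 in GFP+ replicate 2 and 1.09 in GFP- replicate 3, against 0.468 to 0.700 in the others. Over all genes this SD was 1.61 and 1.35 in the same 2 libraries, 2.03 in GFP+ replicate 3 and 0.891 to 1.06 in the others. A wide spread in the 2 libraries is therefore not particular to the members. GFP+ replicate 2 and GFP- replicate 3 were the lowest of the 6 for 45 members (24 of 50 large, 21 of 33 small), beside 12.4% of all genes. Another 13 of the 83 tested members stood higher in both than in GFP+ replicate 1 and GFP- replicates 1 and 2. This share is no larger than the 17.2% of all genes, so it sets the members apart from other genes in no way. They were Rpl4, Rpl5, Rpl6, Rpl12, Rpl23, Rpl26, Rpl28, Rpl31, Rpl36a, Rpl36al, Rpl39, Rps6 and Rps27a. Of these, 11 belong to the large subunit, which holds 50 of the 83 tested members.

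**Figure D4:**
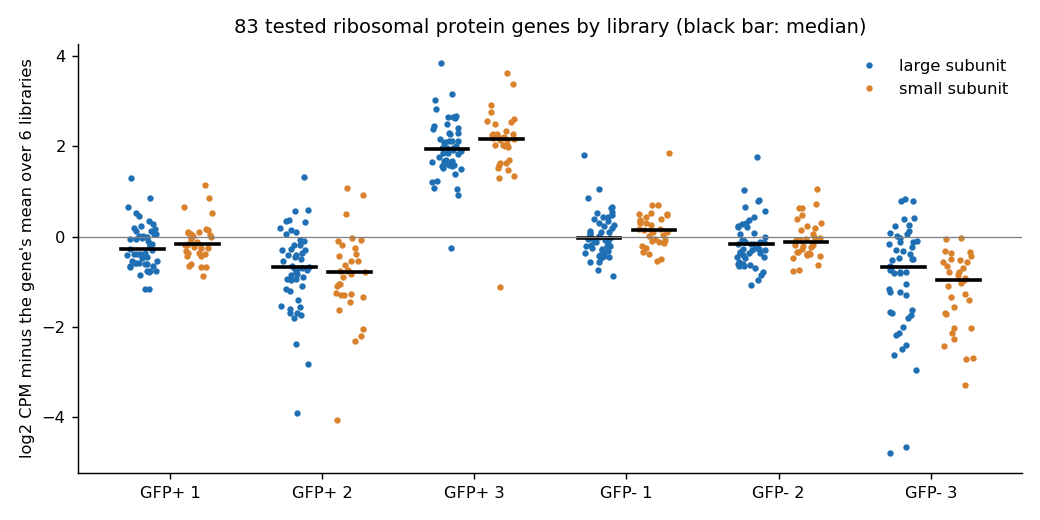
Log2 CPM of each of the 83 tested ribosomal protein genes minus that gene's mean over the 6 libraries, by library and subunit, with the median as a bar. Points gather near 2 in GFP+ replicate 3 (median 2.03) and spread widest in GFP+ replicate 2 and GFP- replicate 3. Over all genes, not drawn, the SD in those 2 libraries was 1.61 and 1.35.

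The P-stalk recruits elongation factors to the large subunit. Rplp0, its base, stood at 306, 623 and 1373 CPM in GFP+ ILCPs and 364, 449 and 309 CPM in GFP- ILCPs, with a log2 fold change of 1.04 ± 0.60 (SE, edgeR unadjusted p = 0.114). Rplp1 stood at 309.5, 96.4 and 1805 CPM in GFP+ ILCPs and 343, 185 and 79.0 CPM in GFP- ILCPs, with a log2 fold change of 1.86 ± 0.97 (SE, edgeR unadjusted p = 0.0822). Rplp2 stood at 163, 50.5 and 1316 CPM in GFP+ ILCPs and 219, 189 and 40.5 CPM in GFP- ILCPs, with a log2 fold change of 1.77 ± 1.06 (SE, edgeR unadjusted p = 0.126). All 3 were highest in GFP+ replicate 3 and their groups overlapped. Rplp1 and Rplp2 were lowest in GFP- replicate 3 and next lowest in GFP+ replicate 2, whereas Rplp0 was second highest in GFP+ replicate 2.

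Rpl3, near the catalytic centre of the large subunit, stood at 427, 248 and 2103 CPM in GFP+ ILCPs and 631, 496 and 423 CPM in GFP- ILCPs (0.84 ± 0.75, log2 fold change and SE here and in what follows). Rpl11, which with Rpl5 and 5S RNA can bind MDM2 and so stabilise p53, stood at 255, 200.2 and 905 CPM in GFP+ ILCPs and 269, 253 and 165 CPM in GFP- ILCPs (0.99 ± 0.64). Both were highest in GFP+ replicate 3, with overlapping groups. Rpl5 went another way, at 58.3, 227 and 76.9 CPM in GFP+ ILCPs and 67.9, 53.5 and 159 CPM in GFP- ILCPs (0.37 ± 0.68), with high values in GFP+ replicate 2 and GFP- replicate 3. Rpl10, which completes the maturing subunit, stood at 248, 209 and 595 CPM in GFP+ ILCPs and 301, 245 and 123 CPM in GFP- ILCPs (0.65 ± 0.58). Rpl38, known in mouse development for its part in translating Hox mRNAs, stood at 453, 319 and 3533 CPM in GFP+ ILCPs and 619.7, 500.2 and 623 CPM in GFP- ILCPs (1.30 ± 0.84). Rpl13a, a subunit of the GAIT complex in human myeloid cells, stood at 113, 28.8 and 415 CPM in GFP+ ILCPs and 137, 196 and 21.0 CPM in GFP- ILCPs (0.65 ± 0.96). For both, GFP+ replicate 3 was highest, and Rpl13a was lowest in GFP- replicate 3.

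Rpl4 and Rpl6 were among the most abundant large subunit genes by CPM. Rpl4, which reaches into the exit tunnel, stood at 1691, 3629.8 and 5492 CPM in GFP+ ILCPs and 2194, 1628 and 5174 CPM in GFP- ILCPs (0.27 ± 0.65), so GFP- replicate 3 was nearly as high as GFP+ replicate 3 and its pair differences were −0.38, 1.16 and 0.09. Rpl6 stood at 675, 1057 and 3478 CPM in GFP+ ILCPs and 830.1, 884 and 1176 CPM in GFP- ILCPs (0.85 ± 0.66). Besides Rpl4, the lowest fold changes were those of Rpl7l1 and Rpl29. Rpl29, a surface protein of the subunit, stood at 636, 303 and 1518 CPM in GFP+ ILCPs and 733, 1024 and 173 CPM in GFP- ILCPs (0.35 ± 0.75) and overlapped between the groups. Rpl36, with the highest fold change of the large subunit after Rplp1, stood at 165, 36.8 and 1069 CPM in GFP+ ILCPs and 189, 153 and 15.4 CPM in GFP- ILCPs (1.83 ± 1.14, edgeR unadjusted p = 0.139). It was lowest in GFP- replicate 3 and GFP+ replicate 2.

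The members that varied most between libraries were chosen after their values were seen. Rpl18 stood at 188, 5.05 and 1096 CPM in GFP+ ILCPs and 269.6, 262 and 2.64 CPM in GFP- ILCPs, a range of 416-fold with pair differences of −0.52, −5.66 and 8.63 on the log2 scale. Rps14, which is lost in the human 5q- syndrome, stood at 121, 3.89 and 823 CPM in GFP+ ILCPs and 242, 139 and 6.75 CPM in GFP- ILCPs, a range of 212-fold. Rpl35 stood at 73.1, 38.0 and 290.0 CPM in GFP+ ILCPs and 95.4, 67.9 and 1.71 CPM in GFP- ILCPs, a range of 170-fold. Rpl18 and Rps14 were near 0 in both GFP+ replicate 2 and GFP- replicate 3, and Rpl35 in GFP- replicate 3 alone. In those 2 libraries the values of Rpl18 rest on 61 and 34 counts and those of Rps14 on 47 and 87 counts, above a floor of 3 counts.

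Across the 83 tested members, the log2 pair difference in replicate 2 ran against that in replicate 3 (Pearson's r = −0.74, Spearman's rho = −0.69). Over all 12199 genes Pearson's r was −0.07. The points share their libraries, genes are not independent, and no p is given. Deviations from a member's own mean are also tied to each other, since they sum to 0. Deviations in GFP+ replicate 2 and GFP- replicate 3 ran together (r = 0.53 over members, −0.02 over all genes), and those in GFP- replicates 1 and 3 ran opposite (r = −0.82). Transcript GC content had r of −0.23 with the pair difference in replicate 2 and 0.29 in replicate 3, against −0.24 and 0.15 over all genes. In the large subunit these were −0.34 and 0.46, and in the small subunit −0.08 and 0.02.

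**Figure D5:**
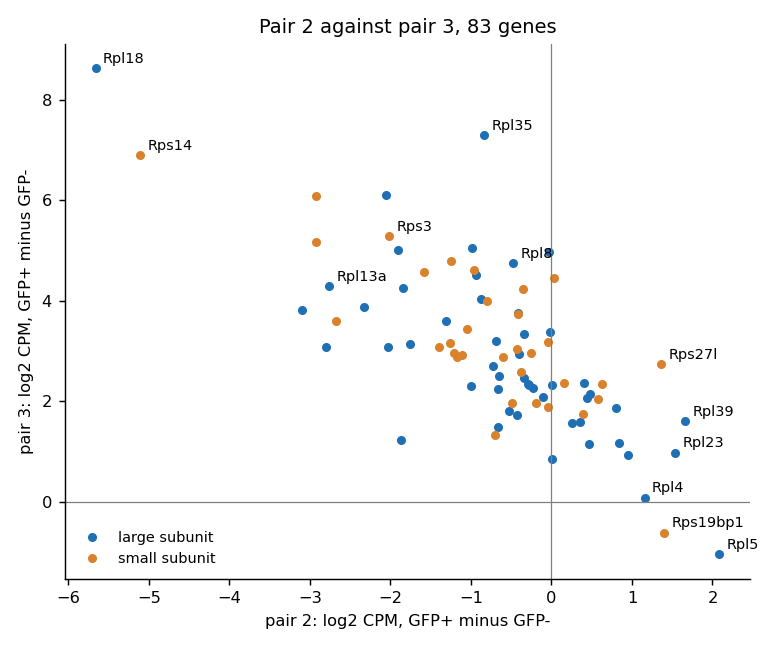
Log2 difference, GFP+ minus GFP-, within replicate 2 (horizontal) and replicate 3 (vertical), 1 point for each tested ribosomal protein gene. Rpl18 is the lowest point in replicate 2 (−5.66) and the highest in replicate 3 (8.63), and Pearson's r is −0.74 over 83 genes.

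In the small subunit, Rpsa, also known as the laminin receptor, stood at 481, 290.4 and 2514 CPM in GFP+ ILCPs and 698, 504 and 158 CPM in GFP- ILCPs (1.27 ± 0.85). Rps3, at the mRNA entry channel, stood at 327, 67.0 and 1261 CPM in GFP+ ILCPs and 336, 271 and 32.3 CPM in GFP- ILCPs (1.37 ± 1.02). Rps6, the phosphorylation target of S6 kinases, stood at 661, 1009 and 3376 CPM in GFP+ ILCPs and 715, 771 and 1008 CPM in GFP- ILCPs (1.02 ± 0.66). All 3 were highest in GFP+ replicate 3. Rpsa and Rps3 were lowest in GFP- replicate 3, where Rps6 was as high as in GFP+ replicate 2. Rps24, of high abundance, stood at 882, 432 and 5119 CPM in GFP+ ILCPs and 1139, 932 and 673 CPM in GFP- ILCPs (1.23 ± 0.83). Rps26, which lies beside the mRNA exit channel, stood at 173, 41.9 and 826 CPM in GFP+ ILCPs and 246, 269 and 68.5 CPM in GFP- ILCPs (0.84 ± 0.93). Rps27a, made as a fusion with ubiquitin, stood at 172, 216 and 931 CPM in GFP+ ILCPs and 178, 140.0 and 184 CPM in GFP- ILCPs (1.39 ± 0.68) and had the lowest p of all members (edgeR unadjusted p = 0.0659).

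The highest fold changes of the small subunit were those of Rps27rt, Rps15 and Rps19. Rps15 stood at 179, 90.4 and 1270.0 CPM in GFP+ ILCPs and 211, 214 and 45.7 CPM in GFP- ILCPs (1.71 ± 0.96). Rps19, the gene most often mutated in Diamond-Blackfan anaemia, stood at 166, 109.5 and 1074 CPM in GFP+ ILCPs and 267, 140.4 and 57.3 CPM in GFP- ILCPs (1.54 ± 0.89). Rps13, among the lowest, stood at 119, 139 and 519.6 CPM in GFP+ ILCPs and 201, 143 and 139.6 CPM in GFP- ILCPs (0.68 ± 0.63). In all 3 of these GFP+ replicate 3 was highest and the groups overlapped, and for Rps13 GFP+ replicates 1 and 2 lay below all 3 GFP- libraries.

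Rps4x and Rps27l were the tested members whose groups did not overlap. Rps4x, an X-linked subunit gene, stood at 556, 601 and 1891 CPM in GFP+ ILCPs and 498, 542 and 367 CPM in GFP- ILCPs, so the GFP+ minimum lay just above the GFP- maximum (1.12 ± 0.60, edgeR unadjusted p = 0.0909). Rps27l, a paralog of Rps27 that p53 induces in human cells, stood at 17.0, 42.8 and 51.1 CPM in GFP+ ILCPs and 14.3, 16.5 and 7.52 CPM in GFP- ILCPs, with pair differences of 0.24, 1.36 and 2.74 (1.53 ± 0.78, edgeR unadjusted p = 0.0793). Leaving out 1 library or replicate at a time moved the log2 fold change of Rps27l between 0.95 and 2.00 and that of Rps4x between 0.15 and 1.50. Neither passed the adjusted threshold.

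Paralogs were set beside the gene they resemble. Rpl22, whose loss in mice blocks development of αβ T cells, stood at 187, 216 and 1143 CPM in GFP+ ILCPs and 238, 214 and 229 CPM in GFP- ILCPs (1.18 ± 0.71). Its paralog Rpl22l1 stood at 38.3, 46.2 and 249 CPM in GFP+ ILCPs and 46.9, 47.0 and 7.83 CPM in GFP- ILCPs (1.71 ± 0.91). Both were highest in GFP+ replicate 3, but in GFP- replicate 3 Rpl22 was level with its group and Rpl22l1 was at its lowest. Rpl36a stood at 107, 147 and 655 CPM in GFP+ ILCPs and 129.9, 108 and 156 CPM in GFP- ILCPs (1.20 ± 0.70) and Rpl36al, a retrogene relative, at 104, 116 and 454 CPM in GFP+ ILCPs and 111, 90.6 and 150.5 CPM in GFP- ILCPs (0.94 ± 0.65), with the same library highest. Rpl7 stood at 179, 99.5 and 548 CPM in GFP+ ILCPs and 167, 158 and 194 CPM in GFP- ILCPs (0.67 ± 0.64). Rpl7l1, named for its likeness to Rpl7, stood at 16.3, 9.10 and 44.7 CPM in GFP+ ILCPs and 21.7, 33.7 and 19.1 CPM in GFP- ILCPs (−0.09 ± 0.82) and was the 1 member with a log2 fold change below 0, at a size within its error, and its sign changed in DESeq2. Rpl39, whose protein lines the exit tunnel, stood at 265, 677 and 1617 CPM in GFP+ ILCPs and 247, 214 and 532 CPM in GFP- ILCPs (1.37 ± 0.70, edgeR unadjusted p = 0.0789) and was higher in GFP+ in all 3 pairs. Rps19bp1, the binding protein that the name rule takes in, stood at 12.5, 10.8 and 2.49 CPM in GFP+ ILCPs and 5.66, 3.99 and 3.88 CPM in GFP- ILCPs, opposite to the subunits in GFP+ replicate 3.

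Ribosomal protein genes have many processed copies in the genome, and estimated counts divide reads among near-identical sequences. Of each member's 31-base words in 1 chosen GENCODE vM21 transcript, a median of 62.9% also occurred in transcripts of other genes, and 62 of 86 members shared over 50%. Of the members, 81 had such a partner in the table, and for 9 the partner's mean CPM exceeded the member's own. The copy Gm15500, which shares words with Rpl5, stood at 551, 511 and 2213 CPM in GFP+ ILCPs and 563, 549 and 659 CPM in GFP- ILCPs, and summed with Rpl5 at 609, 738 and 2289.5 CPM in GFP+ ILCPs and 631, 603 and 818 CPM in GFP- ILCPs. The sum was highest in GFP+ replicate 3, unlike Rpl5 alone. Rpl10-ps3, which holds 92.3% of the words of Rpl10, stood at 436, 361 and 2509 CPM in GFP+ ILCPs and 574, 659.8 and 254 CPM in GFP- ILCPs. Gm10275, a copy of Rpl12, stood at 225, 1368 and 1659 CPM in GFP+ ILCPs and 273, 284 and 1196 CPM in GFP- ILCPs, far above Rpl12 itself at 32.9, 53.6 and 87.1 CPM in GFP+ ILCPs and 28.7, 27.6 and 45.8 CPM in GFP- ILCPs. The level of each such member taken alone is therefore uncertain.

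Rps27rt, a retrogene copy and by CPM the most abundant small subunit member, stood at 1012, 142 and 7232 CPM in GFP+ ILCPs and 992, 1080.2 and 107 CPM in GFP- ILCPs (1.94 ± 1.22). It shares 91.6% of its words with Rps27, which is not analysed here, so its counts cannot be assigned to 1 locus. Adding the counts of pseudogenes named -ps to each parent gene, an alternative chosen after seeing the data, gave 82 of 83 members above 0 with a median of 1.15. Copies under other names, such as Gm15500 and Gm10275, were not added, so the division of reads among all copies was not tested. The 162 pseudogenes named -ps together took 0.173%, 0.154% and 0.562% of the counts in GFP+ ILCPs and 0.238%, 0.208% and 0.148% in GFP- ILCPs, highest in the same library as their parents.

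Per kilobase of transcript, the 75 standard members ranged from 37.0 CPM per kb for Rpl12 to 2769 for Rpl38 in mean level over the 6 libraries, with a median of 484. The middle of the distribution was narrower, with quartiles of 340 and 809 CPM per kb. These levels carry the uncertainty of copies described above. They also rest on the length of 1 chosen transcript a gene, and whether that transcript is the one expressed was not tested. For Rps15a it had 5130 bases, which put a mean of 465 CPM at 90.6 CPM per kb. The SD of log2 CPM over the 6 libraries had a median of 1.15 over the members, beside 1.16 over all genes.

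Of 14 subunit genes mutated in human Diamond-Blackfan anaemia, 14 had a log2 fold change above 0 with a median of 1.25. Within pairs, 0 of 14 were higher in GFP+ in replicate 1, 2 in replicate 2 and 13 in replicate 3, so the list went as the other members did.

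Other genes of the pathway were counted by list, and edgeR called 0 of each. Of 11 other TOP mRNAs, 11 had log2 fold changes above 0 with a median of 0.66, and 2, 4 and 11 were higher in GFP+ in replicates 1, 2 and 3. Tpt1, a TOP mRNA of translationally controlled tumour protein, stood at 527, 876 and 2683 CPM in GFP+ ILCPs and 513, 513 and 508 CPM in GFP- ILCPs. Of 38 translation factors, 32 were above 0 with a median of 0.42. Eef1a1, which delivers aminoacyl-tRNA, stood at 3383, 8249 and 12894 CPM in GFP+ ILCPs and 4906, 4452 and 5329 CPM in GFP- ILCPs, and Pabpc1, the poly(A)-binding protein, at 1261, 2817 and 2587 CPM in GFP+ ILCPs and 1475, 1661 and 2412 CPM in GFP- ILCPs. Eef1a1 and Tpt1 were highest in GFP+ replicate 3, as the ribosomal protein genes were.

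Genes of ribosome assembly leaned less. Of 53 ribosome biogenesis genes, 35 were above 0 and 18 below, with a median of 0.32. At an edgeR unadjusted p under 0.05, 2 of the 53 were higher and 1 lower, beside 1.77% and 1.46% of all genes. Such small counts say little about the list. Npm1, a nucleolar chaperone, stood at 517, 1332 and 1692 CPM in GFP+ ILCPs and 663, 481 and 995 CPM in GFP- ILCPs, and Ncl, nucleolin, at 533, 942 and 1625 CPM in GFP+ ILCPs and 565, 587 and 1067 CPM in GFP- ILCPs. Of 28 genes of growth control through mTOR and Myc, 17 were above 0 with a median of 0.09. Their most abundant genes were Rps6ka3, a kinase of the RSK family, at 882, 1107 and 517 CPM in GFP+ ILCPs and 831, 1188 and 2286 CPM in GFP- ILCPs, and Mga, a partner of Max, at 393, 1819 and 729 CPM in GFP+ ILCPs and 429.5, 710.5 and 1066 CPM in GFP- ILCPs. The authors' deposited table called 1 of them, Akt1s1, with an adjusted p of 0.0474. Akt1s1, an inhibitor of mTOR complex 1 named here after its values were seen, stood at 24.3, 10.7 and 20.0 CPM in GFP+ ILCPs and 3.28, 4.17 and 1.32 CPM in GFP- ILCPs and edgeR gave it 2.64 ± 1.10 with an unadjusted p of 0.0365. DESeq2 run here did not call it (adjusted p = 0.113).

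The lists for mitochondrial translation and respiration had smaller medians than the members. Of 79 mitochondrial ribosomal protein genes, 44 were above 0 and 35 below, with a median of 0.17, and their share of counts stayed between 0.146% and 0.239% in all libraries. Of 74 nuclear genes of oxidative phosphorylation, 49 were above 0 with a median of 0.28. All 13 mitochondrially encoded genes were above 0 with a median of 0.61, and their median pair differences were −0.26, 3.14 and −1.05, the reverse of the cytosolic members in replicates 2 and 3.

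Markers of other cells were set beside the high level of ribosomal protein genes in GFP+ replicate 3. Of 12 B and plasma cell markers 11 were in the table, with a summed level of 43.2 to 1018 CPM in GFP+ and 88.3 to 113 CPM in GFP- ILCPs. Jchain, a plasma cell gene, stood at 0.126, 0 and 799 CPM in GFP+ ILCPs and 15.5, 0.321 and 5.66 CPM in GFP- ILCPs, and Cd79b, a part of the B cell receptor, at 16.0, 3.39 and 62.6 CPM in GFP+ ILCPs and 29.3, 30.3 and 41.3 CPM in GFP- ILCPs, both highest in GFP+ replicate 3. Pax5, which defines B cells, was at 0 in that library. Myeloid markers (6 of 8 in the table) summed to 25.2 to 1615 CPM in GFP+ and 168 to 374 CPM in GFP- ILCPs, with Lyz2 at 712, 24.7 and 817 CPM in GFP+ ILCPs and 249, 144 and 99.6 CPM in GFP- ILCPs and Mpo at 35.5, 0.331 and 648 CPM in GFP+ ILCPs and 81.5, 18.5 and 159 CPM in GFP- ILCPs, both highest in GFP+ replicate 3, where Itgam was at 0. Erythroid markers (7 of 8) summed to 0 to 95.8 CPM in GFP+ and 2.71 to 38.3 CPM in GFP- ILCPs. Hbb-bs, a globin gene, stood at 1.90, 0 and 32.4 CPM in GFP+ ILCPs and 1.61, 13.4 and 0.233 CPM in GFP- ILCPs, highest in GFP+ replicate 3, and Alas2 was at 0 in GFP+ replicates 2 and 3. T cell markers (6 of 6) summed to 76.1 to 346 CPM in GFP+ and 155 to 246 CPM in GFP- ILCPs, with Cd3e and Cd3g at 0 in GFP+ replicate 3. B and plasma, myeloid and erythroid sums were highest in that library and the T cell sum lowest. Pax5, Itgam and Cd3g are named for being at 0, after their values were seen. The part of these cells in the ribosomal protein result was not tested.

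Among genes that are no members, the 3 whose log2 CPM over the 6 libraries was most like the mean of the members were Gm12696 (Pearson's r = 0.996), Hcfc1r1 (r = 0.995) and Aldoa (r = 0.994). The likeness of Gm12696 rests on few counts, 29, 17 and 41 in GFP+ ILCPs and 30, 39 and 14 in GFP- ILCPs. Aldoa, the glycolytic enzyme aldolase A, stood at 121, 82.7 and 337 CPM in GFP+ ILCPs and 144, 133 and 83.3 CPM in GFP- ILCPs, and Hcfc1r1 at 7.91, 3.14 and 85.4 CPM in GFP+ ILCPs and 7.68, 7.28 and 2.79 CPM in GFP- ILCPs. Of 12116 genes compared, 124 reached r of 0.95 or more.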

How the data were processed

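Bone marrow ILCP RNA was amplified (NuGEN Trio kit), cleared of rRNA and read from both ends, per the labels' protocols. Tools named in the submitters' processing notes are kallisto, Bowtie2, Trimmomatic and DESeq2, with GRCm38 as build. Strandedness is not given in the sources used here, so genes that overlap or lie antisense are uncertain. The authors' deposited table holds estimated counts per gene. Per the file headers it also gives a mean signal per gene, log2 fold changes with errors, a Wald score and p-values with adjusted p-values.

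Estimated counts were rounded and tested with edgeR 4.0.16 in R 4.3.3 (robust quasi-likelihood, TMM, filterByExpr, group only, two-sided, Benjamini-Hochberg at 0.05), with DESeq2 1.42.0 beside it. Log2 values carry a prior count of 2. Shares are percent of all counts of a library. For word sharing, GC and length, 1 transcript a gene was taken by lowest APPRIS number, support level and length. Members and lists were chosen with earlier results of these data known. Named members are a fixed set, the 3 highest and lowest fold changes and 3 highest means per subunit, the 2 most abundant genes of each list, and the 3 most alike genes; some genes are not reported here. Other genes named were chosen after their values were seen. There were 21 symbols read as dates, tested but not named. Same-numbered libraries share pooled mice, per the labels. Correlations of their deviations from group means were 0.161, −0.121 and −0.131. Alternatives were other scalings and filters, the replicate block and libraries left out.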

Additional observations from a re-analysis of the deposited data

How the results depend on the processing

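The 0 calls of edgeR over all genes and over the members held under every scaling, filter, threshold and left-out library tried, and under the replicate block, which with its pairing put 77 members above 0 and 6 below with a median of 0.53. DESeq2 called 60 of all genes and 0 members. Scaling by totals moved the median of all genes from −0.03 to −0.19 and that of the members to 0.80.

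The direction of the members rested on 1 library. The median log2 fold change over leave-one-out runs lay between −0.28 and 1.58 for large subunit genes and between −0.53 and 1.88 for small subunit genes. With GFP+ replicate 3 left out the medians were −0.18 and −0.23, and with its GFP- partner left out as well they were −0.28 and −0.53. The difference in share of counts lay between −0.865 and 3.34 percentage points. At an unadjusted p under 0.05 there were 34 members without GFP+ replicate 2 (5.34% of all genes), 14 without GFP+ replicate 1 (10.8%) and 9 with both libraries of pool 2 left out (3.17%), with lowest adjusted p of 0.912, 0.43 and 1.00 in edgeR, and at most 4 in any other setting tried. Leaving out libraries left as few as 2 in a group, and the spread was estimated over both groups together, as in the main fit. The 3 pools a group limit precision, and p-values cover these pools alone.

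Single members changed sign when libraries were left out, with log2 fold changes over those runs of Rpl10 −0.26 to 1.17, Rpl11 −0.20 to 1.46, Rpl13a −1.24 to 1.73, Rpl22 −0.18 to 1.67, Rpl22l1 −0.15 to 2.47, Rpl29 −0.91 to 1.24, Rpl3 −0.74 to 1.41, Rpl36 −0.77 to 2.76, Rpl36a −0.0492 to 1.67, Rpl36al −0.0940 to 1.34, Rpl38 −0.59 to 1.84, Rpl4 −0.17 to 0.91, Rpl5 −0.75 to 1.24, Rpl6 −0.15 to 1.30, Rpl7 −0.32 to 1.06, Rpl7l1 −1.13 to 0.58, Rplp1 −0.38 to 2.90, Rplp2 −0.94 to 2.63, Rps13 −0.42 to 1.27, Rps15 −0.66 to 2.50, Rps19 −0.57 to 2.63, Rps24 −0.66 to 1.85, Rps26 −1.26 to 1.66, Rps27rt −0.85 to 2.90, Rps3 −0.63 to 2.18, Rpsa −0.64 to 2.13. Other named genes that changed sign had ranges of Alas2 −9.79 to 0.99, Aldoa −0.45 to 1.01, Cd79b −1.80 to 0.22, Flt3 −1.42 to 0.27, Gm12696 −0.26 to 1.17, Hbb-bs −2.97 to 4.20, Hcfc1r1 −0.44 to 3.19, Hlf −0.0511 to 0.34, Il2ra −0.0331 to 2.18, Il7r −0.12 to 0.43, Itga4 −0.98 to 0.83, Jchain −6.58 to 7.15, Mcpt8 −4.12 to 0.51, Mga −0.42 to 0.96, Mpo −2.27 to 2.19, Ncl −0.00298 to 0.85, Pabpc1 −0.0200 to 0.60. Rpl7l1 was at 0.0062 with DESeq2's size factors and 0.0043 in DESeq2. With the replicate block Rps26 was at −0.092, Jchain −2.34, Alas2 −5.00, Mpo −1.33 and Cd3e −0.10. With total counts Il7r was at −0.11 and Hlf at −0.099. In no case was the cause tested.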
